A study of Mus musculus with 24 samples.

Results

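The comparison set CA1 tissue taken 36 h after status epilepticus (SE) against CA1 tissue taken 12 h after SE, 24 h apart, with 3 libraries on each side, which made 6 of the 24 libraries of the series. The members were all genes of those 6 libraries, and 18153 genes of the 18647 in the table passed the filter on low counts and were tested. The mice were C57Bl/6N of at least 60 days and at least 20 g, given 1 mg/kg scopolamine methyl nitrate and, 20 min later, 335 mg/kg pilocarpine hydrochloride. Each mouse received 4 mg/kg diazepam 40 min after SE began, and only pilocarpine mice that developed SE were kept. Non-SE controls (Ctr) had the same injections with saline in the place of pilocarpine, and 3 control libraries each at 12 and 36 h served as the background of the same 24 h step. All animals therefore carried scopolamine and diazepam, and a difference between SE 36 h and SE 12 h had no untreated baseline of its own. CA1 was cut from 400 µm coronal slices, so each library held neurons, glia and vessels together. Fewer cells of a type and less RNA per cell cannot be told apart in such bulk tissue. The labels do not say how many mice made a library, and p-values measure only the spread between libraries. The hour at which SE was induced is not given in the sources used here, so the 2 groups shared a clock time only if induction took place at the same hour. Mice were kept under a 12 h light and dark cycle.

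Pilocarpine drives muscarinic receptors until seizures become self-sustaining. In the hours after SE, neurons that fired in seizures transcribe immediate early genes, which encode short-lived transcription factors such as Fos, Egr and Nr4a proteins, and these in turn drive effector genes that act at synapses. Microglia and astrocytes react next. Microglia lose transcripts of their resting state, take up debris and divide, and astrocytes enlarge, build intermediate filaments and alter the uptake of glutamate and potassium. Transcripts of the molecular clock, in which Bmal1 and Clock drive Per, Cry, Rev-erb (Nr1d1, Nr1d2) and PAR bZIP genes (Dbp, Tef, Hlf), move with the hour of the day, which is why a step of one whole day bears on them.

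Library totals were 12623517 to 30133731 counts at SE 12 h and 12015641 to 16955333 at SE 36 h, and 14540 genes had at least 10 counts in all 6 libraries. Levels are given as CPM, counts scaled to the TMM-adjusted library total, replicates 1, 2 and 3 in that order. The first principal component of the 6 libraries held 39.4% of the variance and separated the time points. The second held 26.1% and set SE 12 h replicate 1 and SE 36 h replicate 3, 1 library from each group, apart at scores of 49.6 and 47.1 against -47.7 to -1.35 for the other 4. These 2 libraries had high levels of genes of sensory ganglia and peripheral nerve. Sncg (gamma-synuclein) was at 152, 2.85 and 3.98 CPM at SE 12 h and 1.19, 2.68 and 240.5 CPM at SE 36 h. Avil (advillin) was at 92.8, 2.68 and 3.59 and 1.48, 2.44 and 115 CPM, and Calca (the calcitonin gene-related peptide gene) at 90.7, 4.84 and 6.37 and 6.3, 5.75 and 153 CPM. Xist, the RNA of the inactive X chromosome, was at 34.1, 0.464 and 0.558 and 0.148, 0 and 28.4 CPM, whereas the Y-linked gene Ddx3y was at 73.3 to 85.5 CPM at SE 12 h and 49.1 to 84 CPM at SE 36 h. The part of this material in the results was not tested beyond leaving both libraries out, as given beside the results. Without both, 96 of the 107 called genes named by rule stayed called and 11 lost their call. These were Arg1 (log2FC 2.43), Cdc6 (1.19), Chac1 (-1.55), Dusp1 (-1.31), H1f3 (-2.23), Has1 (-1.72), Icam1 (-1.15), Kcnn2 (0.64), Mmp3 (-1.77), Olig1 (0.83) and Tlr4 (1.29).

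At SE 36 h, 1119 genes (6.16% of those tested) differed from SE 12 h, 586 of them higher (3.23%) and 533 lower (2.94%). Calling a gene took an adjusted p no larger than 0.05 together with a log2 fold change (log2FC) of 1 or more in either direction, and a positive log2FC is higher at 36 h. In 29.8% of the genes tested, the 3 libraries of one time point did not overlap those of the other. The same 24 h step in the controls, which share no library with the SE groups, gave 0 calls (0.0%) in edgeR, with 648 genes at an unadjusted p under 0.05 against 5575 in SE, and 2 calls in DESeq2. The median log2FC over all genes was -0.01 in both. The difference between the SE step and the control step was called for 427 genes (2.35%), 270 with a higher (1.49%) and 157 with a lower (0.865%) SE step. The SE count was 1064 without the 2 libraries that stood apart, of which 774 were among the 1119, and it was 714 without SE 36 h replicate 1. It was 455 when only the 6 compared libraries were fitted, without the factor of unwanted variation, and 489 when at least 10 counts were asked in every library. The numbers in the sample labels fell in 3 ranges, with SE 12 h replicates 2 and 3 and SE 36 h replicate 3 in the lowest, and what they mark is not given. Within that range SE 36 h had 1 library, which is assumed to vary like the other groups. It was replicate 3, 1 of the 2 libraries that stood apart, and both SE 12 h libraries there were among the others. In this fit the log2FC of Avil was 5.25 and that of Calca 4.81. The part of the nerve material in the results of this range was not tested. Of the called genes named by rule, 37 of 103 lost their call when only the 6 compared libraries were fitted, and 35 of 107 within the range of label numbers. Among those that no single omission had cost their call, the former were C5ar2, Cacng3, Cartpt, Dbp, Dusp2, Hspa1a, Hspa1b, Oasl2, Pdyn, S100a6, Sesn2 and Steap4. The latter were Aurkb, C5ar2, Cdh24, Fosb, Gcg, Gpnmb, Hmga2, Inmt, Itgam, Or9a7, Slc6a21 and Steap4.

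**Figure D1:**
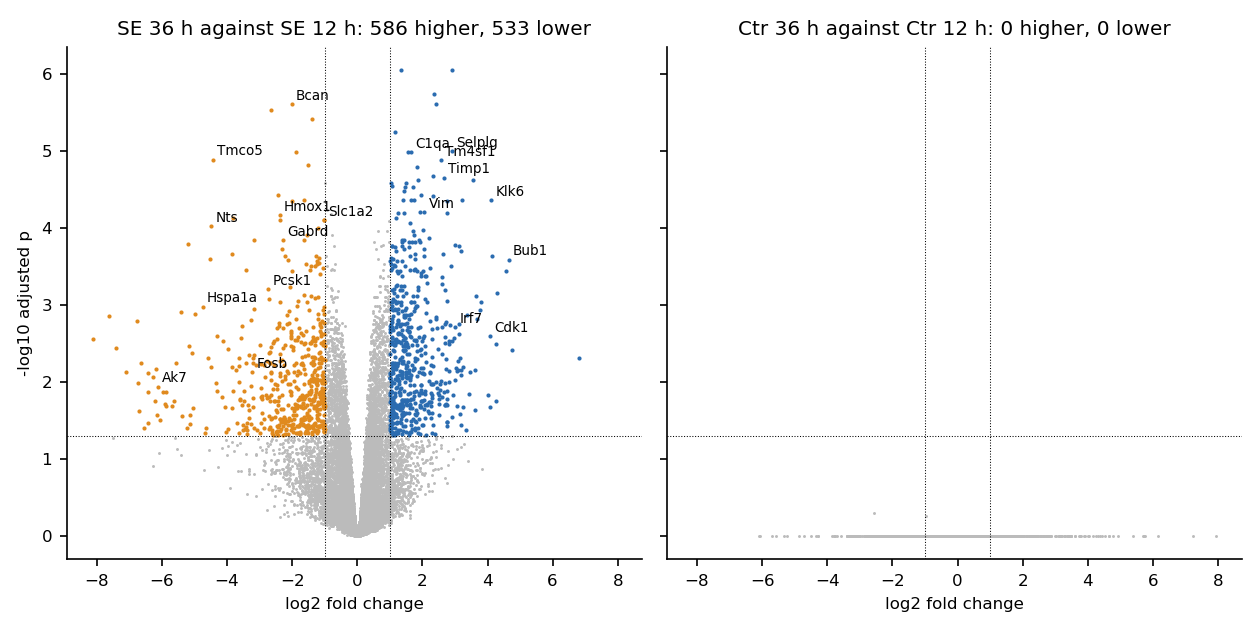
Each point is 1 of the 18153 genes, with the log2 fold change on the x axis and -log10 of the adjusted p on the y axis, for SE 36 h against SE 12 h (left) and the same step in the controls (right). Blue points were higher and orange points lower past both thresholds (dotted lines), 586 and 533 in SE and 0 in the controls.

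The direction of a change over 24 h did not say whether a gene moved away from the control level or back to it, so the libraries of each time were set against their own controls, as a description with no test. Over all genes tested, 24.5% had all 3 SE 12 h libraries above all 3 Ctr 12 h libraries and 23.2% below, and at 36 h the shares were 25.8% and 26.2%. The called genes were chosen on these same SE libraries, so their shares differ from those of all genes partly by that choice. Of the 586 genes that rose, 456 (77.8%) lay above Ctr 36 h at SE 36 h and 25 (4.27%) below. At SE 12 h, 168 of these genes (28.7%) lay above Ctr 12 h and 153 (26.1%) below. Of the 533 genes that fell, 320 (60.0%) lay above Ctr 12 h at SE 12 h and 24 (4.5%) below. At SE 36 h, 82 of them (15.4%) lay above Ctr 36 h, 80 of which also lay above Ctr 12 h at SE 12 h, while 193 (36.2%) lay below Ctr 36 h.

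The 12 largest increases among genes averaging 1 or more on the log2 CPM scale came from several processes. Klk6, a kallikrein-related serine protease of oligodendrocytes, was at 1.34, 0.63 and 1.2 CPM at SE 12 h and 13.4, 16.4 and 23.2 CPM at SE 36 h (log2FC 4.11, s.e. 0.5, adjusted p = 4.41e-05), while the 6 control libraries lay at 0.157 to 0.904 CPM. Hmga2, a chromatin protein of growing cells, went from 0.398, 0.398 and 1.43 to 11, 12.9 and 5.3 CPM (log2FC 3.81, s.e. 0.65, adjusted p = 0.000912). Inmt, which methylates indole amines, went from 0.547, 1.03 and 0.398 to 8.45, 14.7 and 4.39 CPM (log2FC 3.65, s.e. 0.61, adjusted p = 0.000774). These 3 genes were near control levels at 12 h. In each of them every 36 h library was above every other library, which the rule required only against SE 12 h. Cdsn, which encodes the adhesion protein corneodesmosin, was at 1.39, 1.46 and 1.2 and then 15, 19.6 and 13.6 CPM (log2FC 3.54, s.e. 0.4, adjusted p = 2.37e-05). Cd180, a Toll-like receptor homologue of myeloid cells, was at 6.56, 4.64 and 5.74 and then 72.5, 35.5 and 52.9 CPM (log2FC 3.23, s.e. 0.39, adjusted p = 4.41e-05), with controls at 1.24 to 3.74 CPM. Snx31, a sorting nexin, was at 1.09, 0.497 and 0.558 and then 5.93, 3.94 and 7.35 CPM (log2FC 2.98, s.e. 0.6, adjusted p = 0.00271). The remaining 6 were Ifi44, Irf7, Cxcl10, Pclaf, Top2a and Cd52, which belong to the interferon, dividing cell and microglial groups described further on.

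The 12 largest decreases were led by Ak7, an adenylate kinase of cilia, which rested on 1 library. It was at 1.84, 192 and 3.27 CPM at SE 12 h and 1.41, 0.552 and 0.684 CPM at SE 36 h (log2FC -6.11, s.e. 1.55, adjusted p = 0.0116), and the call was lost when SE 12 h replicate 2 or else SE 36 h replicate 3 was omitted (log2FC -5.95 to -1.51). Gcg, the proglucagon gene, fell from 9.69, 8.42 and 19.4 to 0.222, 0.158 and 0.684 CPM (log2FC -4.97, s.e. 0.9, adjusted p = 0.00131), and Tmco5 from 12.9, 15.4 and 39.4 to 0.889, 1.42 and 0.741 CPM (log2FC -4.42, s.e. 0.47, adjusted p = 1.3e-05). Both were at or under 1.87 CPM in all 6 controls. Muc2, a secreted mucin, fell from 16.2, 35.6 and 13.1 to 1.85, 2.36 and 1.82 CPM (log2FC -3.41, s.e. 0.52, adjusted p = 0.000351). Spaar, which encodes a small lysosomal polypeptide, fell from 6.61, 6.07 and 24.1 to 1.78, 1.73 and 0.627 CPM (log2FC -3.17, s.e. 0.56, adjusted p = 0.00113). Tacr3, the neurokinin B receptor, fell from 8.95, 17.5 and 44.1 to 4.22, 2.68 and 1.48 CPM (log2FC -3.1, s.e. 0.71, adjusted p = 0.00609), with controls at 1.7 to 11.5 CPM. Prg4, which encodes lubricin, fell from 13.2, 46.1 and 37.8 to 4.3, 4.41 and 2.96 CPM (log2FC -2.94, s.e. 0.75, adjusted p = 0.0121), a call lost when SE 36 h replicate 3 was omitted (log2FC -2.75). For all of these, no 36 h library reached the lowest 12 h library, which the rule for the largest changes required. The other 5, Nts, Cartpt, Hspa1a, Hspa1b and Fosb, are described with their groups.

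Of 25 immediate early transcription factors tested, 12 fell and 0 rose, the median log2FC was -1.30 against 0.32 in the control step and -0.01 over all genes, and 18 had all 36 h libraries below all 12 h libraries, as had 14.6% of all genes tested. Fosb, an AP-1 subunit whose products accumulate in neurons that keep firing, was at 125, 308 and 558 CPM at SE 12 h and 23.9, 37.9 and 39.3 CPM at SE 36 h (log2FC -3.22, s.e. 0.76, adjusted p = 0.00741). Its controls were at 18, 16.2 and 13.3 CPM at 12 h and 31.4, 33.3 and 34.6 CPM at 36 h, so the SE 36 h libraries overlapped Ctr 36 h. Npas4, which is induced by calcium entry in neurons, was at 61.5, 93.9 and 220.4 and then 13.8, 19.7 and 32.1 CPM (log2FC -2.47, s.e. 0.81, adjusted p = 0.0433). Egr4, a zinc finger factor, was at 48.8, 71.2 and 144 and then 14.3, 13.7 and 30.4 CPM (log2FC -2.12, s.e. 0.65, adjusted p = 0.0324). In all 3 genes SE 12 h replicate 3 was the highest of the 6 libraries. Klf4 was at 16.6, 22.3 and 32.2 and then 3.63, 8.43 and 4.62 CPM (log2FC -2.09, s.e. 0.39, adjusted p = 0.00173), and here the 36 h libraries were all below the controls, which lay at 8.51 to 13.2 CPM. The other 8 called members were Nr4a3, Nr4a2, Klf2, Jund, Fosl1, Fosl2, Ier2 and Maff, with log2FC between -2.01 and -1.30. Fos was at 106, 149 and 262 and then 48, 58.7 and 79.9 CPM and Egr1 at 421, 413 and 867 and then 148, 174 and 380.5 CPM, both without overlap but not called (adjusted p = 0.103 and 0.166). These 2 genes and Arc below were chosen after their values were seen. The call of Egr4 was lost when SE 12 h replicate 3 or else SE 36 h replicates 1 or 2 was omitted (log2FC -1.94 to -1.59), and that of Npas4 when SE 12 h replicates 2 or 3 or else SE 36 h replicates 1, 2 or 3 was omitted (log2FC -2.87 to -1.8). The number of called members was 8 without the 2 libraries that stood apart, 6 within the lowest range of label numbers and 7 with the compared libraries only. Omitting SE 12 h replicate 3 left 5, and omitting SE 36 h replicates 1, 2 or 3 left 5, 7 and 6.

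Of 21 activity-induced effectors, 6 fell and 0 rose, with a median log2FC of -0.61 against 0.1 in the control step. The share called lower over all genes tested was 2.94%. All 36 h libraries were below all 12 h libraries in 8 members, as in 14.6% of all genes tested. Pcsk1, the prohormone convertase that processes neuropeptide precursors, was at 147, 183 and 398 CPM at SE 12 h and 33.3, 27 and 49.5 CPM at SE 36 h (log2FC -2.73, s.e. 0.45, adjusted p = 0.00063), where it overlapped its controls at 26.4 to 47.3 CPM. Gadd45g, a stress-induced regulator of growth arrest, was at 68.7, 99.8 and 355 and then 45.3, 38.5 and 51.9 CPM (log2FC -1.94, s.e. 0.48, adjusted p = 0.00966), and without SE 12 h replicate 3, its highest library, the call was lost (log2FC -0.9). The kinase Plk3 was at 36.5, 59.3 and 52.9 and then 13.7, 16.3 and 12.2 CPM (log2FC -1.81, s.e. 0.31, adjusted p = 0.000887). The receptor Gpr3, which is active without a ligand, was at 29.9, 43.7 and 59.4 and then 10.3, 16.1 and 14.6 CPM (log2FC -1.68, s.e. 0.47, adjusted p = 0.0189), a call lost when SE 12 h replicate 3 or else SE 36 h replicates 1 or 3 was omitted (log2FC -1.74 to -1.43). In both genes the 2 time points were well separated. Arc, which controls AMPA receptor endocytosis, was at 635, 785 and 1486 and then 305, 300.3 and 364 CPM (log2FC -1.56, s.e. 0.52, adjusted p = 0.0435), with 109.6, 88.1 and 106 CPM in Ctr 12 h and 298, 251 and 209.6 CPM in Ctr 36 h, and its call was lost when SE 12 h replicates 2 or 3 or else SE 36 h replicates 1, 2 or 3 was omitted (log2FC -1.68 to -1.13). Of 13 genes that limit MAPK signalling, 2 were lower, the phosphatases Dusp2 at 1.09, 4.11 and 2.15 and then 0.371, 0.394 and 0.513 CPM (log2FC -2.31, s.e. 0.51, adjusted p = 0.00529) and Dusp1 at 36.8, 61 and 80.1 and then 21.9, 35.2 and 21 CPM (log2FC -1.17, s.e. 0.37, adjusted p = 0.0371). The Dusp1 call was lost when SE 12 h replicates 2 or 3 or else SE 36 h replicates 1 or 3 was omitted (log2FC -1.13 to -0.9). Omitting SE 12 h replicate 3 left 2 called effectors, omitting SE 36 h replicate 1 or 3 left 3, and the lowest range of label numbers gave 2.

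The 250 bases before the start of each gene were searched on both strands for TGACGTCA, the cAMP response element (CRE) bound by CREB, a factor that activity phosphorylates. It was present before 4 of the 25 immediate early genes (16%) and 3 of the 21 effectors (14.3%), against 300 of 15224 tested protein-coding genes (1.97%), 22 of 440 called lower (5.0%) and 5 of 518 called higher (0.965%). A match is a description of these letters and not a site in use. The promoters of 3 called genes that hold it are shown so that the element can be seen in its surroundings, with the match in capitals, in genome build GRCm39 and 5′ to 3′ on the strand of the gene. They are Pcsk1 (chr13:75237695-75237944 on the plus strand), Ier2 (chr8:85389484-85389733 on the minus strand) and Maff (chr15:79231470-79231719 on the plus strand).
Pcsk1: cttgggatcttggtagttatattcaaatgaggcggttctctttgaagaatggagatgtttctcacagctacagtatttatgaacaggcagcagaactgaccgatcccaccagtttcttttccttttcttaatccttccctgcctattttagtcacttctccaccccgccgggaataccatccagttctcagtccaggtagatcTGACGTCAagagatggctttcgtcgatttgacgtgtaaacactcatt
Ier2: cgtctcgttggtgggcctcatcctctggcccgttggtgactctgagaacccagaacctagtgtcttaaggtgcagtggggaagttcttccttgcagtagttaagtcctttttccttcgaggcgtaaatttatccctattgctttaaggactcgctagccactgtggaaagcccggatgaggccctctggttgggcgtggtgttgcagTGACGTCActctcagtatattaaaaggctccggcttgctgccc
Maff: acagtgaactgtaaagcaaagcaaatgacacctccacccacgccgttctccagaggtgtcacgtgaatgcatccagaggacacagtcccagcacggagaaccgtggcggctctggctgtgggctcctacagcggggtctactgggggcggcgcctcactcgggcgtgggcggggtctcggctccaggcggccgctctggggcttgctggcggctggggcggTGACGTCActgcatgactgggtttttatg
Ier2 was at 29.8, 29.6 and 42.7 CPM at SE 12 h and 8.82, 13.9 and 11.3 CPM at SE 36 h (log2FC -1.58, s.e. 0.31, adjusted p = 0.00218). Maff, a small Maf factor, was at 16.7, 15.1 and 32.7 and then 8.3, 12.5 and 5.41 CPM (log2FC -1.3, s.e. 0.35, adjusted p = 0.0157), a call lost when SE 12 h replicate 3 or else SE 36 h replicates 1 or 3 was omitted (log2FC -1.27 to -0.87). Both genes were lower in every 36 h library than in any 12 h library.

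Neuropeptide genes gave 4 decreases and 1 increase among 15, with a median log2FC of -0.79, against 6.16% of all genes tested called. Nts, which encodes neurotensin, was at 186, 144 and 319 CPM at SE 12 h and 8.37, 10.9 and 9.29 CPM at SE 36 h (log2FC -4.49, s.e. 0.59, adjusted p = 9.43e-05). The 36 h libraries were back among the controls, which lay at 3.29 to 18.1 CPM. Cartpt, which encodes CART peptides, was at 3.48, 40.2 and 8.13 and then 1.93, 0.394 and 2.05 CPM (log2FC -3.58, s.e. 0.72, adjusted p = 0.00269), and its log2FC was -2.0 without SE 12 h replicate 2, its highest library. Pdyn, the dynorphin precursor of granule cells, was at 11.8, 78.7 and 66.4 and then 8.3, 8.75 and 3.93 CPM (log2FC -2.76, s.e. 0.62, adjusted p = 0.00542), with 1 low library at 12 h. Cort, which encodes cortistatin of interneurons, was at 2.14, 5.14 and 4.46 and then 1.11, 0.709 and 0.399 CPM (log2FC -2.39, s.e. 0.45, adjusted p = 0.00174), and its controls were at 2.27, 2.83 and 0.812 and 0.432, 0.731 and 0.822 CPM. Npy, neuropeptide Y, went the other way, from 93.3, 80.6 and 147 to 232, 176 and 233 CPM (log2FC 1.01, s.e. 0.27, adjusted p = 0.0141), with controls at 23.1 to 40.9 CPM. It lay close to the fold threshold and was lost when SE 12 h replicates 1 or 2 or else SE 36 h replicates 1 or 3 was omitted (log2FC 0.85 to 0.95). Npy was chosen after its value was seen. In the list, 2 members were called when at least 10 counts were asked in every library and 3 with the compared libraries only.

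Of 20 heat shock and unfolded protein response genes, 7 fell and 0 rose, with a median log2FC of -0.39. The share called lower over all genes tested was 2.94%. The inducible chaperone Hspa1a was at 8.0, 19.8 and 178 CPM at SE 12 h and 3.19, 2.6 and 1.88 CPM at SE 36 h (log2FC -4.75, s.e. 0.83, adjusted p = 0.00106), and its near-identical copy Hspa1b at 17.7, 55 and 414 and then 9.56, 6.23 and 12 CPM (log2FC -4.12, s.e. 0.84, adjusted p = 0.00295). Reads shared by this pair cannot be traced to 1 of the 2 genes, so the single values are uncertain. SE 12 h replicate 3 stood far above the other libraries in both, and without it their log2FC was -2.47 and -1.99, still called. Sesn2, a sestrin induced by amino acid shortage, was at 42.7, 102 and 103 and then 18.8, 43.4 and 16.5 CPM (log2FC -1.67, s.e. 0.38, adjusted p = 0.00611). Chac1, a glutathione-degrading enzyme induced through Atf4, was at 11.6, 14.3 and 38.6 and then 5.85, 12.1 and 4.5 CPM (log2FC -1.53, s.e. 0.51, adjusted p = 0.0438), a call lost when SE 12 h replicate 3 or else SE 36 h replicates 1 or 3 was omitted (log2FC -1.37 to -0.79). The co-chaperones Dnajb1, Hsph1 and Bag3 had log2FC of -1.23, -1.06 and -1.02. Omitting SE 12 h replicate 3 left 3 called members and omitting SE 36 h replicate 1 also left 3. There were 4 when the label range entered the fit, and 0 in the fit of the 6 libraries alone. Oxidative stress genes were called near the share of all genes tested (6.16%), with 1 of 15, Hmox1, heme oxygenase. It fell from 80.5, 80.4 and 215 to 21.5, 29.6 and 20.9 CPM (log2FC -2.38, s.e. 0.3, adjusted p = 6.92e-05) and stayed above the controls, which lay at 4.45 to 6.11 CPM. The metallothionein Mt1 was at 828, 787 and 1448 and then 847, 484 and 570.0 CPM (log2FC -0.69, adjusted p = 0.0669) and the ferritin chain Fth1 at 1497, 1285 and 2056 and then 2030.1, 1633 and 2008 CPM (adjusted p = 0.4), neither of them called.

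**Figure D2:**
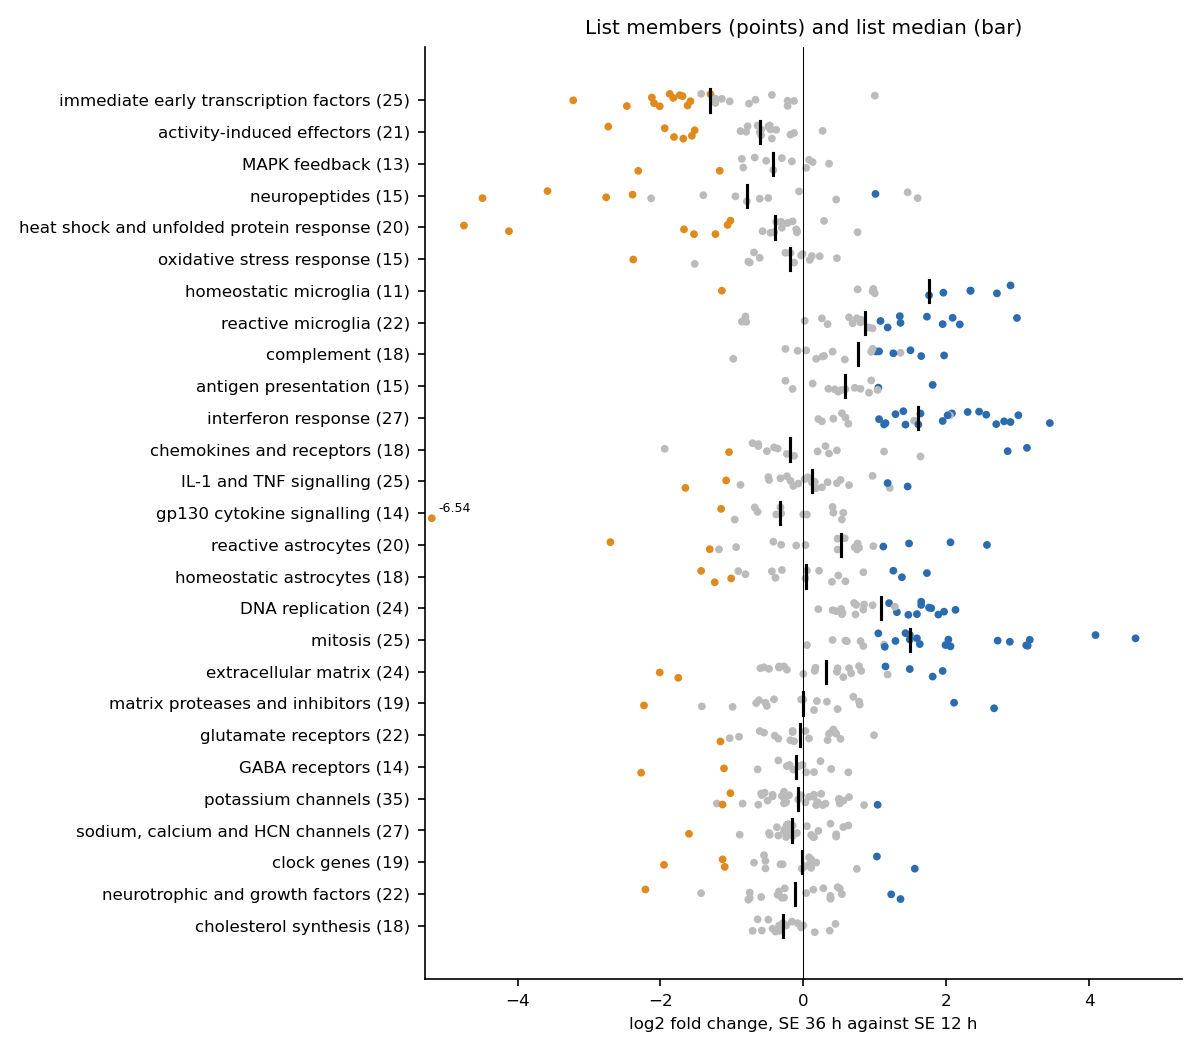
Each point is a member of a gene list, placed at its log2 fold change between SE 36 h and SE 12 h, with the number of members tested in brackets and the list median as a black bar. Blue members were called higher, orange members lower and grey members neither, and Il6 at -6.54 is drawn at the edge of the axis.

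Of 11 genes of homeostatic microglia tested, 6 rose and 1 fell, with a median log2FC of 1.76, and 10 had all 36 h libraries above all 12 h libraries, as had 15.2% of all genes tested. Selplg, the P-selectin ligand, was at 2.39, 2.78 and 2.63 CPM at SE 12 h and 26.6, 13.5 and 18.5 CPM at SE 36 h (log2FC 2.9, s.e. 0.3, adjusted p = 1.02e-05), still below its controls at 32.7 to 43.1 CPM. Tmem119, a surface protein of resident microglia, was at 4.97, 11.5 and 2.79 and then 51.4, 35.2 and 42.4 CPM (log2FC 2.71, s.e. 0.45, adjusted p = 0.000651), above its controls at 21.8 to 29.6 CPM at 36 h. The purine receptor P2ry13 was at 2.58, 2.19 and 2.63 and then 15.4, 10.2 and 11.9 CPM (log2FC 2.34, s.e. 0.26, adjusted p = 2.16e-05) and overlapped the controls at 36 h. Gpr34, a receptor for lysophosphatidylserine, was at 5.07, 4.54 and 3.66 and then 27.4, 18.2 and 22.4 CPM (log2FC 2.34, s.e. 0.28, adjusted p = 3.83e-05), above its controls at 12.8 to 16.3 CPM. The members thus ended at different places relative to the controls. P2ry12, which guides microglial processes to ATP, rose from 3.23, 3.88 and 3.03 to 12.3, 8.99 and 13.4 CPM (log2FC 1.76, s.e. 0.25, adjusted p = 0.000156) but stayed far below its controls at 41.5 to 58 CPM. Siglech, a sialic acid receptor, fell further, from 4.87, 3.88 and 7.01 to 2.82, 1.89 and 2.34 CPM (log2FC -1.14, s.e. 0.3, adjusted p = 0.0146), with controls at 14 to 22.3 CPM, and its call was lost when SE 12 h replicate 3 or else SE 36 h replicates 2 or 3 was omitted (log2FC -1.13 to -0.89). P2ry12 and Siglech were chosen after their values were seen. The summed CPM of the list was 251, 251 and 308 at SE 12 h and 689, 562 and 639 at SE 36 h, on either side of the controls at 404 to 501. Without the 2 libraries that stood apart, 7 members were higher and 0 lower.

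Of 22 reactive microglia genes, 9 rose and 0 fell, with a median log2FC of 0.86, and 5 were called when at least 10 counts were asked in every library. The shares called over all genes tested were 3.23% higher and 2.94% lower. In 16 members all 36 h libraries were above all 12 h libraries, against 15.2% of all genes tested. In 3 members they were all below, against 14.6%. Apoe, chosen after its values were seen, was not called, but was called lower without the 2 libraries that stood apart (log2FC -1.21). Cd52, a small glycoprotein of leukocytes, was at 1.19, 0.762 and 1.43 CPM at SE 12 h and 9.56, 8.04 and 8.6 CPM at SE 36 h (log2FC 2.99, s.e. 0.42, adjusted p = 0.000169). Clec7a, the receptor dectin-1, was at 1.69, 0.53 and 0.478 and then 3.63, 3.07 and 5.87 CPM (log2FC 2.19, s.e. 0.65, adjusted p = 0.0258), a call lost when SE 12 h replicates 2 or 3 or else SE 36 h replicates 1 or 3 was omitted (log2FC 1.81 to 2.28). Cst7, cystatin F, was at 0.845, 1.16 and 0.797 and then 3.11, 3.0 and 6.27 CPM (log2FC 2.09, s.e. 0.43, adjusted p = 0.0034), and the glycoprotein gene Gpnmb at 5.91, 6.07 and 7.49 and then 29.3, 28.8 and 17.4 CPM (log2FC 1.95, s.e. 0.3, adjusted p = 0.000388). Clec7a overlapped its controls at SE 12 h, and the other 3 genes lay above theirs at both times. The other called members were Spp1, Trem2, Lyz2, Ctsd and Ctsz, with log2FC of 1.73, 1.36, 1.35, 1.18 and 1.08. Of 18 complement genes, 6 were higher and 0 lower, with a median log2FC of 0.77. C1qa, a chain of the recognition molecule C1q, was at 38.1, 50.6 and 66.5 and then 161, 149.5 and 175 CPM (log2FC 1.65, s.e. 0.17, adjusted p = 1.05e-05), and C1qc, another chain, at 35.6, 50.1 and 61.4 and then 138, 130.1 and 147 CPM (log2FC 1.5, s.e. 0.17, adjusted p = 2.59e-05). In both, SE 12 h replicate 1 lay within the controls, at 33.6 to 38.8 and 29.1 to 37.8 CPM, and the other SE libraries lay above them. C5ar2, a receptor for C5a, was at 0.547, 0.597 and 1.04 and then 4.37, 1.66 and 2.28 CPM (log2FC 1.97, s.e. 0.43, adjusted p = 0.0045), and Itgam, a subunit of complement receptor 3, at 7.5, 6.2 and 9.48 and then 19.9, 23.8 and 12.6 CPM (log2FC 1.26, s.e. 0.25, adjusted p = 0.00232). Of 15 antigen presentation genes, 2 were higher and 0 lower. In 4 of the 15, all 36 h libraries were above all 12 h libraries, against 15.2% of all genes tested. The nonclassical class I gene H2-T23 was at 4.42, 6.73 and 6.61 and then 25.3, 12.1 and 24.7 CPM (log2FC 1.81, s.e. 0.37, adjusted p = 0.00294), and Tapbp, tapasin of the peptide loading complex, at 26.8, 24.4 and 21.6 and then 56, 40.1 and 54.8 CPM (log2FC 1.05, s.e. 0.16, adjusted p = 0.000351). The Tapbp call, close to the threshold, was lost when SE 12 h replicate 3 or else SE 36 h replicates 1 or 3 was omitted (log2FC 0.96 to 0.98).

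Of 27 interferon response genes tested, 19 rose and 0 fell, and the median log2FC was 1.61. All 36 h libraries were above all 12 h libraries in 18 of them, as in 15.2% of all genes tested. Irf7, a transcription factor of type I interferon responses, was at 2.09, 3.48 and 4.06 CPM at SE 12 h and 43.6, 8.43 and 23 CPM at SE 36 h (log2FC 3.01, s.e. 0.57, adjusted p = 0.00195). Isg15, a ubiquitin-like modifier, was at 2.19, 2.49 and 2.47 and then 28.5, 6.54 and 17.9 CPM (log2FC 2.9, s.e. 0.59, adjusted p = 0.00295). Oasl2, a member of the oligoadenylate synthetase family, was at 9.94, 4.84 and 6.61 and then 84.6, 11.8 and 47 CPM (log2FC 2.81, s.e. 0.58, adjusted p = 0.00327). The 36 h libraries differed more among themselves than the 12 h libraries did, with replicate 1 the highest and replicate 2 the lowest in all 3 genes. Ifi44 was at 1.09, 1.06 and 0.797 and then 21.4, 2.13 and 9.74 CPM (log2FC 3.45, s.e. 0.81, adjusted p = 0.00748), and its call was lost when SE 36 h replicate 1 was omitted (log2FC 2.63). The summed CPM of the list was 253, 239 and 254 at SE 12 h and 962, 339.7 and 620.4 at SE 36 h, with 137 to 165 in the controls. In the control step the median log2FC of the list was -0.04. The number of called members was 7 without SE 36 h replicate 1, 12 within the lowest range of label numbers, 8 with the compared libraries only and 13 without the 2 libraries that stood apart. Only Ifih1 and Ifit2 were also called in the difference from the control step.

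The interferon-stimulated response element is the site of the ISGF3 and IRF factors. Its core was searched as GAAA, any 2 bases and GAAA again on both strands of the same 250 bases and was present before 9 of the 27 interferon genes (33.3%), against 3.05% of all 15224 promoters, 7.53% of those of genes called higher and 2.73% of those called lower. Overlapping matches count separately. Isg15 (chr4:156285304-156285553 on the minus strand) held 3 overlapping matches near its start, and Ifit1 (chr19:34618021-34618270 on the plus strand) held 2 on the opposite strand, and both are shown with the matches in capitals.
Isg15: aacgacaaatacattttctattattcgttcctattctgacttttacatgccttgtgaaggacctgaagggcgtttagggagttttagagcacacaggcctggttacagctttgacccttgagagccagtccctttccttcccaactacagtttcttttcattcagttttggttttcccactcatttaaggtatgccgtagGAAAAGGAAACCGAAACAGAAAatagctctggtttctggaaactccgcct
Ifit1: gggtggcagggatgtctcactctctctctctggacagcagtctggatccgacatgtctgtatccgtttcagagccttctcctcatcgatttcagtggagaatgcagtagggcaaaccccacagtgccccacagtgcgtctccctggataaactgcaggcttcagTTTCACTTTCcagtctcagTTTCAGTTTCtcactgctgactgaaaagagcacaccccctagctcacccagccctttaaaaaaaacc
Ifit1, which binds foreign RNA caps, was at 3.23, 3.85 and 4.22 CPM at SE 12 h and 33.3, 4.18 and 26.7 CPM at SE 36 h (log2FC 2.46, s.e. 0.63, adjusted p = 0.0121). SE 36 h replicate 2 lay within the range of the 12 h libraries, the other 36 h libraries lay far above it, and the call was lost when SE 36 h replicate 1 was omitted (log2FC 1.85).

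Chemokines and cytokines did not move in one direction. Of 18 chemokine genes and receptors, 2 were higher and 1 lower, with a median log2FC of -0.18. For this and the next 2 lists, the share called over all genes tested was 6.16%. Cxcl10, an interferon-induced ligand of Cxcr3, was at 6.66, 1.82 and 3.82 CPM at SE 12 h and 45.9, 16.4 and 34.2 CPM at SE 36 h (log2FC 3.13, s.e. 0.57, adjusted p = 0.00177). Ccl12, a ligand of Ccr2, was at 2.88, 2.29 and 3.74 and then 39.9, 7.57 and 17 CPM (log2FC 2.86, s.e. 0.54, adjusted p = 0.00181). In both genes the controls were at or under 0.503 CPM and SE 36 h replicate 1 was the highest. Ccl9 fell from 28.3, 39.2 and 58.6 to 17.7, 24.2 and 17.7 CPM (log2FC -1.04, s.e. 0.3, adjusted p = 0.0209), a call lost when SE 12 h replicate 3 or else SE 36 h replicates 1 or 3 was omitted (log2FC -0.98 to -0.75). Of 25 genes of IL-1 and TNF signalling, 2 were higher and 2 lower, and 1 to 2 in all were called when SE 12 h replicate 2 or 3 or any SE 36 h library was omitted. The bacterial sensor Tlr2 was at 8.05, 9.08 and 14.6 and then 31.9, 22 and 30.6 CPM (log2FC 1.46, s.e. 0.27, adjusted p = 0.00176), and Tlr4 at 4.03, 3.55 and 3.43 and then 8.82, 8.28 and 8.03 CPM (log2FC 1.18, s.e. 0.35, adjusted p = 0.0261). Il1rn, the IL-1 receptor antagonist, fell from 7.9, 7.33 and 13.3 to 2.59, 2.68 and 4.05 CPM (log2FC -1.65, s.e. 0.48, adjusted p = 0.0313) and was at 0 in all 6 controls. Icam1, an adhesion molecule for leukocytes, fell from 9.69, 15.6 and 24.2 to 9.34, 8.51 and 5.53 CPM (log2FC -1.08, s.e. 0.34, adjusted p = 0.036). The calls of Tlr4, Il1rn and Icam1 were each lost without 4 or more of the 6 libraries in turn, with log2FC of 1.14 to 1.26, -1.85 to -1.34 and -1.36 to -0.71 over all 6 omissions. Of 14 genes of gp130 cytokine signalling, 2 were lower. Il6 was at 0.248, 0.564 and 1.67 CPM at SE 12 h and had no count in any SE 36 h library, which made it at least 3.95-fold lower against 3 counts per library (adjusted p = 0.0394), and its call was lost without any 1 library other than SE 12 h replicate 1. Cntfr, the receptor of ciliary neurotrophic factor, fell from 64.6, 100.1 and 121 to 46.4, 36.4 and 45.6 CPM (log2FC -1.15, s.e. 0.22, adjusted p = 0.00222), a call lost when SE 12 h replicate 3 was omitted (log2FC -0.94).

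Of 25 mitosis genes, 18 rose and 0 fell, with a median log2FC of 1.49, and of 24 DNA replication genes, 11 rose and 0 fell, with a median of 1.09. In the control step these medians were -0.27 and -0.14. The share called higher over all genes tested was 3.23%. Bub1, a kinase of the spindle checkpoint, was at 0.0994, 0.298 and 0 CPM at SE 12 h and 5.78, 1.97 and 4.56 CPM at SE 36 h (log2FC 4.65, s.e. 0.69, adjusted p = 0.00026). Cdk1, the kinase that starts mitosis, was at 0.199, 0.398 and 0.478 and then 7.48, 3.47 and 7.41 CPM (log2FC 4.09, s.e. 0.81, adjusted p = 0.00252). Aurkb, a kinase of the chromosomal passenger complex, was at 0.298, 0.331 and 0.876 and then 4.89, 3.07 and 4.33 CPM (log2FC 3.17, s.e. 0.7, adjusted p = 0.00496). The 12 h values of these 3 genes were under 1 CPM, so their folds rest on few counts at 12 h. Top2a, a topoisomerase of dividing cells, was at 2.83, 1.49 and 3.74 and then 37.2, 11.7 and 20.5 CPM (log2FC 3.14, s.e. 0.45, adjusted p = 0.000172), with controls at 0.773 to 3.41 CPM. Pclaf, which binds the clamp PCNA, was at 0.447, 0.729 and 1.12 and then 10.2, 4.34 and 5.87 CPM (log2FC 3.18, s.e. 0.46, adjusted p = 0.000201). In the replication list, Uhrf1, which couples DNA methylation to replication, was at 4.27, 2.98 and 3.59 and then 17.5, 12.2 and 17.8 CPM (log2FC 2.13, s.e. 0.36, adjusted p = 0.000912). The helicase subunit Mcm5 was at 8.85, 4.04 and 3.74 and then 25.3, 18.8 and 22.6 CPM (log2FC 1.97, s.e. 0.31, adjusted p = 0.000418), and the ligase Lig1 at 7.6, 4.71 and 5.02 and then 24, 18.7 and 20.7 CPM (log2FC 1.89, s.e. 0.26, adjusted p = 0.000144). Cdc6, which loads the helicase, was at 0.348, 1.49 and 1.99 and then 4.22, 3.63 and 4.67 CPM (log2FC 1.79, s.e. 0.52, adjusted p = 0.023), a call lost when SE 12 h replicate 1 or else SE 36 h replicates 1 or 3 was omitted (log2FC 1.28 to 1.79). The summed CPM of the mitosis list was 51.8, 50.9 and 55.1 at SE 12 h and 224, 104 and 169 at SE 36 h, with 39.1 to 50.4 in the controls. The number of called mitosis genes was 10 and of replication genes 7 with the compared libraries only, and 3 and 5 when at least 10 counts were asked in every library. Within the lowest range of label numbers, 11 mitosis genes were called, and 12 without the 2 libraries that stood apart.

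The cell cycle genes homology region, a site of the DREAM complex, was searched as TTTGAA on both strands. It was present before 7 of the 25 mitosis genes (28.0%) and 1 of the 24 replication genes (4.17%), against 12.5% of all promoters and 17% of those of genes called higher. Promoters of Cdk1 (chr10:69188769-69189018 on the minus strand) and Top2a (chr11:98915042-98915291 on the minus strand) are given as examples with the TTTGAA match in capitals.
Cdk1: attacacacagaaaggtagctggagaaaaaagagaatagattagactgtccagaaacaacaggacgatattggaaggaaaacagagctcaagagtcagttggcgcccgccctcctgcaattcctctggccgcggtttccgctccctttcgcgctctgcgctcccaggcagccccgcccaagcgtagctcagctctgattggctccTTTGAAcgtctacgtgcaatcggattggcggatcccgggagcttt
Top2a: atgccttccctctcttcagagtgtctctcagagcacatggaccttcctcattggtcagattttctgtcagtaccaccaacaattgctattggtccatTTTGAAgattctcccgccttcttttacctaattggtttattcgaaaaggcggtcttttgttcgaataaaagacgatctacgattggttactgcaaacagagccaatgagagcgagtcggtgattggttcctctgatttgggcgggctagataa

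**Figure D3:**
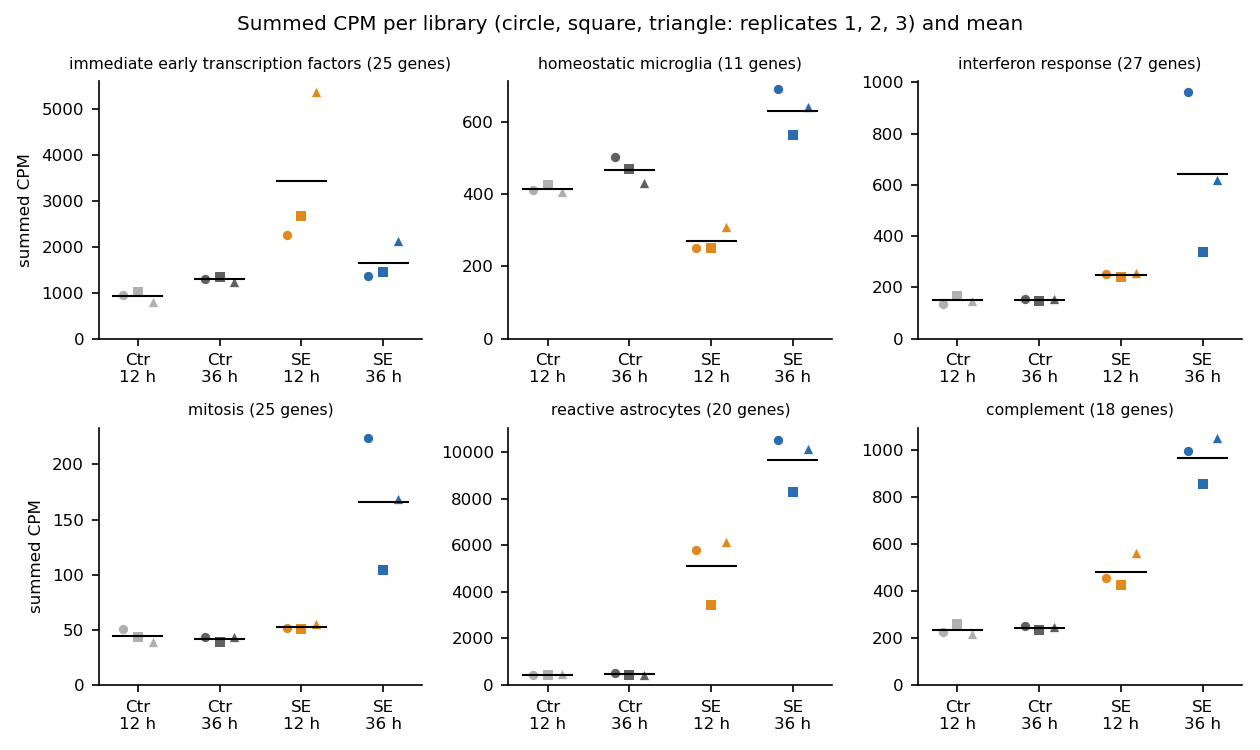
Summed CPM of 6 gene lists in each library of Ctr 12 h, Ctr 36 h, SE 12 h and SE 36 h, with a bar at the mean of 3 libraries. The microglial list crosses from below to above the controls, and the interferon and mitosis lists spread widely at SE 36 h, from 339.7 to 962 and from 104 to 224 CPM.

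Astrocyte genes moved in both directions. Of 20 reactive astrocyte genes, 4 were higher and 2 lower, with a median log2FC of 0.53, against 6.16% of all genes tested called. Vim, the intermediate filament vimentin, was at 349.8, 213 and 400.3 CPM at SE 12 h and 1406, 1276 and 1314 CPM at SE 36 h (log2FC 2.06, s.e. 0.26, adjusted p = 6.33e-05), with controls at 32.3 to 51.3 CPM. Tm4sf1, a tetraspanin-like membrane protein, was at 98.3, 41.5 and 81.6 and then 511, 395 and 407 CPM (log2FC 2.57, s.e. 0.27, adjusted p = 1.32e-05). S100a6, a calcium-binding protein, was at 49.7, 16.6 and 25.5 and then 56.4, 71.6 and 120.2 CPM (log2FC 1.48, s.e. 0.3, adjusted p = 0.00269). Steap4, a metalloreductase induced early by inflammation, fell from 7.21, 3.75 and 9.16 to 0.593, 0.552 and 2.74 CPM (log2FC -2.7, s.e. 0.58, adjusted p = 0.00427), with controls at 0 to 0.626 CPM. Lcn2, lipocalin 2, also fell, from 44.3, 38.2 and 80.3 to 23.6, 25.2 and 16.9 CPM (log2FC -1.31, s.e. 0.43, adjusted p = 0.0432), a call lost when SE 12 h replicate 3 or else SE 36 h replicates 1, 2 or 3 was omitted (log2FC -1.42 to -0.92). Gfap, the astrocyte filament protein, was at 3538, 2228 and 3666 and then 6058, 4109 and 5829 CPM (log2FC 0.76, s.e. 0.22, adjusted p = 0.0251), without overlap but under the fold threshold, with controls at 245 to 309 CPM. Lcn2 and Gfap were chosen after their values were seen. The number of called members was 2, both higher, without the factor of unwanted variation or with the compared libraries only.

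Of 18 genes of homeostatic astrocytes, 3 were higher and 3 lower, against 6.16% of all genes tested called. Kcnj10, the potassium channel Kir4.1 that buffers extracellular potassium, was at 125, 116 and 151 CPM at SE 12 h and 524, 299.6 and 471 CPM at SE 36 h (log2FC 1.73, s.e. 0.21, adjusted p = 4.41e-05), going from below to above its controls at 166 to 245 CPM. Aqp4, the water channel of astrocyte endfeet, was at 250.2, 181 and 185 and then 519.6, 479 and 480.2 CPM (log2FC 1.26, s.e. 0.23, adjusted p = 0.00128), with controls at 98.5 to 160.1 CPM. Fgfr3, a receptor for fibroblast growth factors, was at 116, 107 and 114 and then 371, 229.9 and 276 CPM (log2FC 1.38, s.e. 0.25, adjusted p = 0.0012). Ntsr2, a neurotensin receptor, fell from 48.6, 75.8 and 97 to 26.6, 25.4 and 29.7 CPM (log2FC -1.43, s.e. 0.22, adjusted p = 0.00031), away from its controls at 128 to 188 CPM. Slc1a2, the main glutamate transporter, fell from 1954, 2174 and 2824 to 1265, 1137 and 1044 CPM (log2FC -1.01, s.e. 0.13, adjusted p = 7.93e-05), also away from its controls at 2530.3 to 3155 CPM. This call was at the fold threshold and was lost when SE 12 h replicate 3 or else SE 36 h replicate 3 was omitted (log2FC -0.94 to -0.85). Aldoc, the aldolase of astrocytes, had a log2FC of -1.24. Slc1a2 and Aldoc were chosen after their values were seen.

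**Figure D4:**
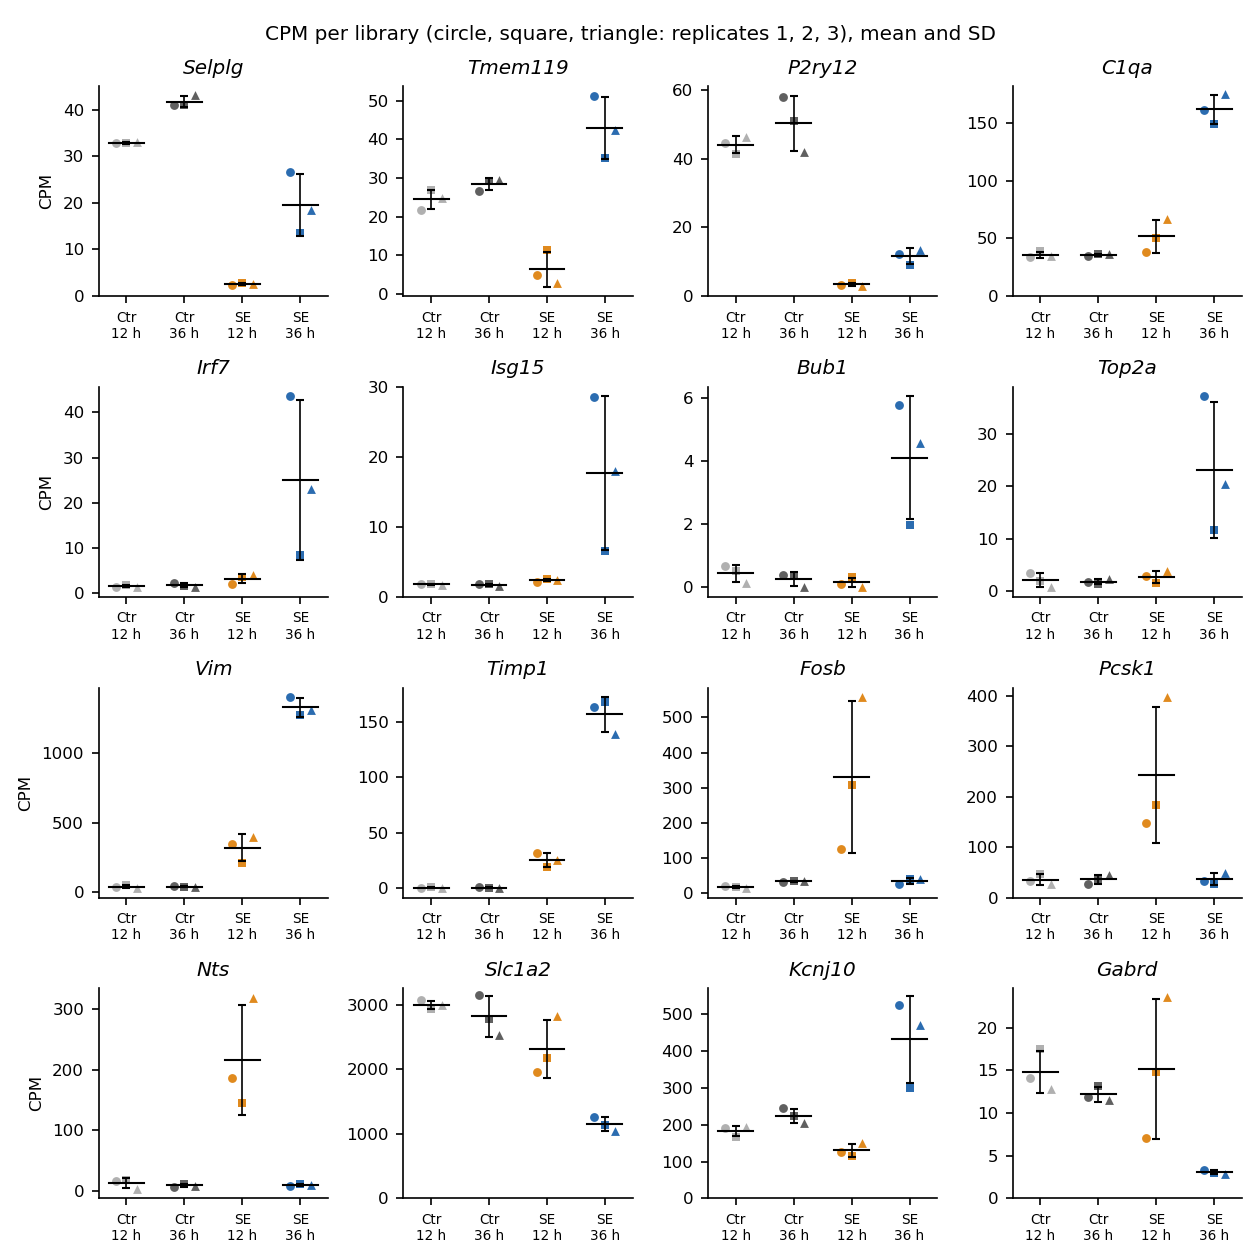
CPM of 16 genes in each library, with Ctr 12 h, Ctr 36 h, SE 12 h and SE 36 h on the x axis, the mean as a horizontal bar and the SD as whiskers (n = 3). Fosb, Pcsk1 and Nts overlapped their controls at SE 36 h, while Slc1a2 and Gabrd lay below theirs and C1qa, Vim and Timp1 above.

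Extracellular matrix genes gave 4 increases and 2 decreases among 24, against 6.16% of all genes tested called in either direction. Bcan, the brain proteoglycan brevican of perineuronal nets, was at 112, 186 and 197 CPM at SE 12 h and 37.9, 35.1 and 49.7 CPM at SE 36 h (log2FC -2.01, s.e. 0.18, adjusted p = 2.49e-06), further below its controls at 329.9 to 403 CPM. Col12a1, a fibril-associated collagen, was at 26.4, 10.5 and 22.4 and then 63.1, 77.5 and 54.7 CPM (log2FC 1.81, s.e. 0.37, adjusted p = 0.0029). Has2, a hyaluronan synthase, was at 5.86, 1.76 and 3.11 and then 10.1, 19.1 and 12.7 CPM (log2FC 1.95, s.e. 0.49, adjusted p = 0.0111), a call lost when SE 12 h replicate 2 was omitted (log2FC 1.59). Has1, a second hyaluronan synthase, fell from 0.994, 2.59 and 1.43 to 0.445, 0.788 and 0.285 CPM (log2FC -1.75, s.e. 0.55, adjusted p = 0.035), a call lost when SE 12 h replicates 2 or 3 or else SE 36 h replicates 1 or 3 was omitted (log2FC -1.84 to -1.27). The other 2 that rose were Tnc (log2FC 1.49) and Fn1 (1.15). Of 19 matrix proteases and their inhibitors, 2 were higher and 1 lower. The metalloprotease inhibitor Timp1 was at 31.8, 19.3 and 24.9 and then 164, 168 and 139 CPM (log2FC 2.67, s.e. 0.3, adjusted p = 2.23e-05), with controls at 0 to 0.575 CPM. The metalloprotease Mmp19 was at 3.58, 4.28 and 5.18 and then 18.8, 16.3 and 19.7 CPM (log2FC 2.11, s.e. 0.38, adjusted p = 0.0013). Mmp3, stromelysin 1, fell from 3.43, 2.39 and 5.98 to 0.445, 1.97 and 0.228 CPM (log2FC -2.23, s.e. 0.67, adjusted p = 0.0333) and was at 0 in every control. Its call was lost when SE 12 h replicate 3 or else SE 36 h replicates 1 or 3 was omitted (log2FC -1.98 to -1.69), and its log2FC was -3.53 without SE 36 h replicate 2.

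Receptor and channel genes held few calls, as did all genes tested, of which 6.16% were called. Of 14 GABA receptor genes, 2 were lower and 0 higher. Gabrd, the delta subunit of extrasynaptic receptors, was at 7.11, 14.8 and 23.6 CPM at SE 12 h and 3.33, 2.92 and 2.91 CPM at SE 36 h (log2FC -2.27, s.e. 0.31, adjusted p = 0.000144), with 11.9, 13.2 and 11.5 CPM in Ctr 36 h. Gabrg1, a gamma subunit, fell from 22.5, 41.5 and 23.9 to 15.3, 7.33 and 18.1 CPM (log2FC -1.11, s.e. 0.29, adjusted p = 0.0134), a call lost when SE 12 h replicate 2 or else SE 36 h replicate 2 was omitted (log2FC -0.81 to -0.77). Of 22 glutamate receptor genes, 1 was called, the NMDA receptor subunit Grin2c, which fell from 46.9, 70.0 and 67.2 to 38.9, 15.1 and 27.6 CPM (log2FC -1.16, s.e. 0.25, adjusted p = 0.00429) and was lost when SE 36 h replicate 2 was omitted (log2FC -0.88). The AMPA receptor subunits Gria1 and Gria2 were at 654, 364 and 504 and 552, 440.2 and 514 CPM at SE 12 h and at 707, 646 and 677 and 725, 749 and 579 CPM at SE 36 h, not called (adjusted p = 0.256 and 0.077). All 6 SE libraries of Gria2 were below its 6 controls. Of 35 potassium channel genes, Kcnh1 fell from 85, 162 and 79 to 47.7, 51.3 and 50.9 CPM (log2FC -1.13, s.e. 0.3, adjusted p = 0.0137) and Kcnj4 from 63.2, 176 and 103 to 52.4, 51.7 and 61.9 CPM (log2FC -1.02, s.e. 0.32, adjusted p = 0.0374), while Kcnn2, the channel SK2, rose from 21.1, 17.6 and 25.7 to 40.5, 26.5 and 63.2 CPM (log2FC 1.04, s.e. 0.29, adjusted p = 0.0173). Without SE 12 h replicate 2, the log2FC of Kcnh1 was -0.71 and that of Kcnj4 -0.56, and neither was called. The Kcnh1 call was also lost without SE 36 h replicate 1 (-1.1). The Kcnj4 call was lost in 5 of the 6 omissions, and that of Kcnn2 when SE 12 h replicate 2 or else SE 36 h replicate 3 was omitted (log2FC 0.65 to 0.92). Of 27 sodium, calcium and HCN channel genes, 1 was called, Cacng3, an auxiliary subunit of AMPA receptors, which fell from 55.5, 149 and 169 to 34.1, 50.8 and 36.4 CPM (log2FC -1.6, s.e. 0.33, adjusted p = 0.00312). Cacna1e, a calcium channel subunit, went from 323, 391 and 305 to 262, 254 and 218 CPM (log2FC -0.47, adjusted p = 0.00602), under the fold threshold.

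Clock genes held 2 higher and 3 lower calls of 19 tested between the 2 SE groups, which lay 24 h apart. Over all genes tested, 6.16% were called. In the controls the same step gave 0 calls, and the difference between the SE step and the control step was called higher for 1 clock gene and lower for 1. The median log2FC of the list was -0.02 in SE and 0.05 in the controls. Dbp, a PAR bZIP factor driven by Bmal1 and Clock, was at 4.17, 3.75 and 1.91 CPM at SE 12 h and 12.7, 6.62 and 10.4 CPM at SE 36 h (log2FC 1.56, s.e. 0.33, adjusted p = 0.00353), with 44.8, 59.2 and 34.3 CPM in Ctr 12 h and 58.6, 51.5 and 45.5 CPM in Ctr 36 h. Nr1d2, which encodes Rev-erb beta, was at 47.3, 30.4 and 30.9 and then 82.2, 65.5 and 73.8 CPM (log2FC 1.03, s.e. 0.18, adjusted p = 0.000916), with controls at 117 to 138 CPM. Both genes rose and stayed below every control library. Per1, a repressor of the loop that activity also induces, fell from 165, 159.8 and 252 to 81.6, 80.3 and 101 CPM (log2FC -1.13, s.e. 0.26, adjusted p = 0.00644), to below its controls at 115 to 170.0 CPM. Cry1, another repressor, fell from 19.5, 29.7 and 41.8 to 14.9, 16 and 11.5 CPM (log2FC -1.1, s.e. 0.23, adjusted p = 0.00312). Nfil3, which competes with PAR bZIP factors for their sites, fell from 29.5, 31 and 116 to 11.9, 19.4 and 15 CPM (log2FC -1.95, s.e. 0.57, adjusted p = 0.0243), and SE 12 h replicate 3 was its highest library. The calls of Per1, Cry1 and Nfil3 were each lost without SE 12 h replicate 3 (log2FC -0.89, -0.81 and -0.98). Those of Cry1 and Nfil3 were also lost without SE 36 h replicate 3 (log2FC -0.97 and -1.93), and that of Nfil3 without SE 36 h replicate 1 (-1.79). That of Nr1d2 was lost when SE 12 h replicates 2 or 3 or else SE 36 h replicate 1 was omitted (log2FC 0.91 to 0.94).

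Other clock genes, chosen after their values were seen, moved less. Bmal1 was at 49.4, 40.8 and 60.0 CPM at SE 12 h and 32.3, 40.7 and 21 CPM at SE 36 h (log2FC -0.69, adjusted p = 0.0155), and Per3 at 11.2, 11.1 and 9.0 and then 20.5, 13.2 and 19.1 CPM (log2FC 0.75, adjusted p = 0.0118), both under the fold threshold. Per2 was at 34, 81.8 and 69.7 and then 49.6, 31 and 61.9 CPM (adjusted p = 0.425), with the groups overlapping. Tef and Hlf, which are PAR bZIP factors like Dbp, were at 151, 198 and 133 and 28.9, 30.8 and 41.4 CPM at SE 12 h and at 177, 143 and 168 and 32.9, 27.9 and 21.7 CPM at SE 36 h. Neither passed the test (adjusted p = 0.961 and 0.511), and all 6 SE libraries of both lay below all 6 controls, at 472 to 526 and 141 to 275 CPM. Clock was at 64.8 to 89.8 CPM at SE 12 h and 79.8 to 90.0 CPM at SE 36 h, around its controls at 75.4 to 86.8 CPM.

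**Figure D5:**
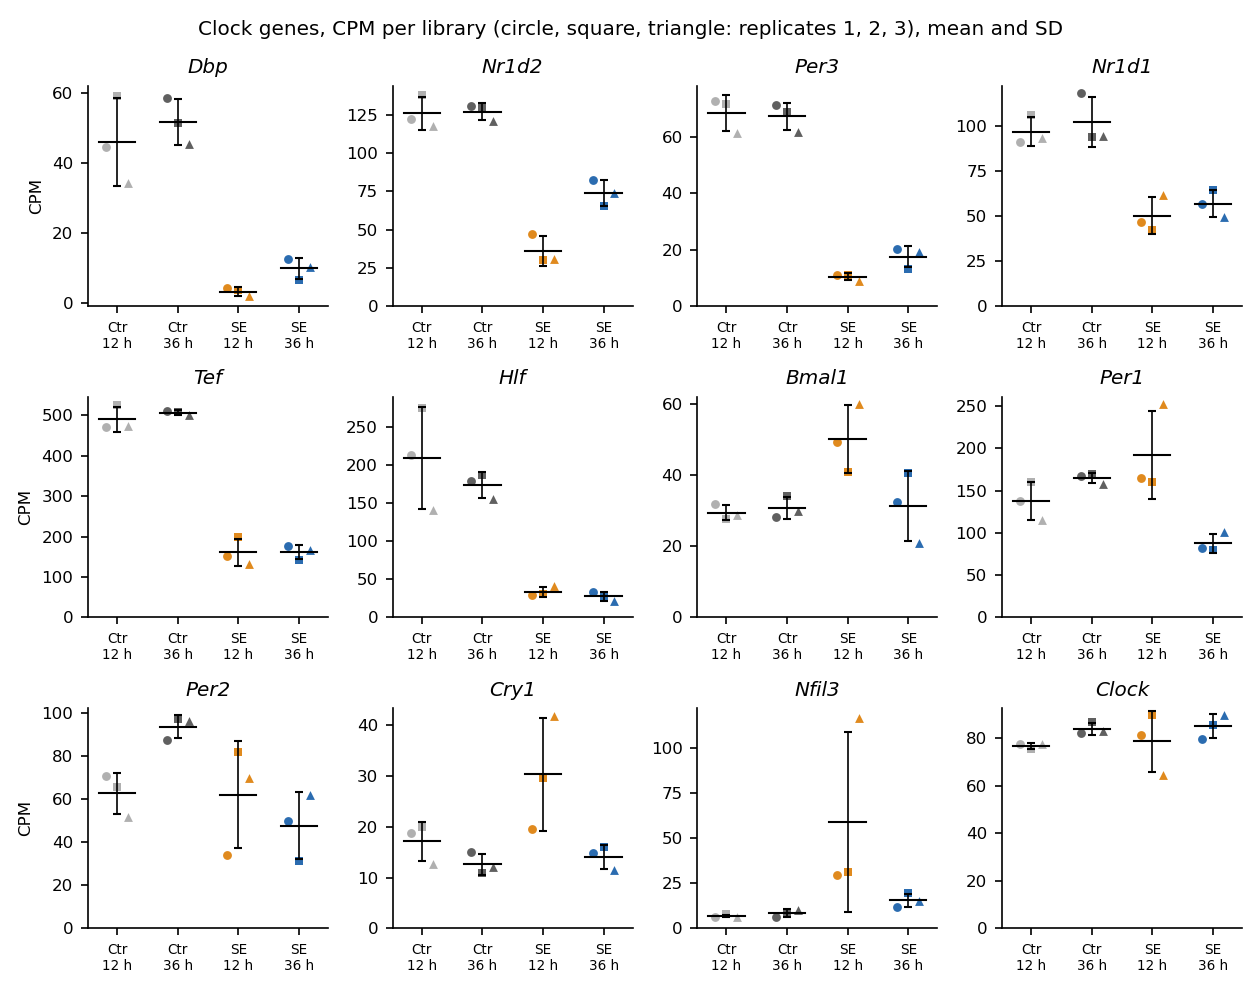
CPM of 12 clock genes in each library of Ctr 12 h, Ctr 36 h, SE 12 h and SE 36 h, with the mean and SD of 3 libraries. Dbp, Nr1d2 and Per3 were higher at SE 36 h than at SE 12 h and below every control, Tef and Hlf stayed low in both SE groups, and Clock stayed near its controls.

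Among 22 neurotrophic and growth factor genes, 2 were higher and 1 lower, against 6.16% of all genes tested called. Tgfb1, the cytokine TGF-beta 1, rose from 10.0, 21.4 and 18.4 to 56.8, 32.2 and 28.3 CPM (log2FC 1.23, s.e. 0.3, adjusted p = 0.00936), a call lost when SE 12 h replicate 1 or else SE 36 h replicate 1 was omitted (log2FC 0.86 to 0.97). Met, the receptor of hepatocyte growth factor, rose from 6.61, 5.17 and 9.88 to 18.7, 26.1 and 10.8 CPM (log2FC 1.36, s.e. 0.4, adjusted p = 0.0259), a call lost when SE 12 h replicates 1 or 2 or else SE 36 h replicates 1 or 2 was omitted (log2FC 1.03 to 1.35). Of 18 genes of cholesterol synthesis, 0 were called, with a median log2FC of -0.28. All 36 h libraries were below all 12 h libraries in 3 members, as in 14.6% of all genes tested. Hmgcs1, an early enzyme of that pathway, was at 223, 276 and 232 and then 180.1, 148 and 256 CPM (adjusted p = 0.293), and Srebf2, its transcription factor, at 213, 273 and 261 and then 229.8, 217 and 221 CPM (adjusted p = 0.49).

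Markers of other cells showed few calls, and 6.16% of all genes tested were called. Neuronal markers gave 0 calls of 13, with a median log2FC of 0.08. Snap25, a protein of synaptic vesicle fusion, was at 1943, 1967 and 1939 and then 1982, 2223 and 2071 CPM, and Camk2a, the kinase of excitatory neurons, at 2376, 2527 and 2549 and then 1920.0, 1463 and 1791 CPM (adjusted p = 0.703 and 0.0724). All SE libraries of Camk2a were below all controls. The 7 CA1 pyramidal markers were all detected and gave 0 calls, with summed CPM of 552, 504 and 399 at SE 12 h and 496, 577 and 713 at SE 36 h. In the controls the same sum was 814, 839 and 589.7 at 12 h and 1099, 1237 and 1182 at 36 h, a median log2FC of 0.7 against -0.21 in SE. Of the CA1 markers, Wfs1 was at 131, 250.4 and 97.1 and then 246, 399.9 and 447 CPM and Gpr161 at 139, 44.4 and 112 and then 77.1, 56.4 and 95 CPM (adjusted p = 0.156 and 0.58). Of 5 CA3 markers only Cdh24 was called, falling from 32.1, 21.7 and 33.3 to 8.3, 8.04 and 11.7 CPM (log2FC -1.62, s.e. 0.38, adjusted p = 0.00675), whereas Grik4 and Nectin3 were not (adjusted p = 0.513 and 0.239). The CA3 list summed to 109.7 to 159 CPM at SE 12 h and 96 to 123 CPM at SE 36 h, but to 84.9, 85.9 and 300.3 CPM in Ctr 12 h, where replicate 3 was high. Dentate granule cell markers gave 0 calls of 11 and summed to 155 to 328 and 192 to 331 CPM, and in the controls to 214, 172 and 263 CPM at 12 h and 146, 121 and 125 CPM at 36 h, a median log2FC of -1.3 against 0.18 in SE. The part of these differences between the control groups in the interaction results was not tested. Of the dentate markers, Glis3 had an adjusted p of 0.621 and Pdzd2 of 0.74.

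Of 10 interneuron markers, Lamp5 of neurogliaform cells fell from 11.4, 33.6 and 19.3 to 7.11, 10.6 and 6.32 CPM (log2FC -1.42, s.e. 0.36, adjusted p = 0.0112) and was lost when SE 12 h replicate 2 or else SE 36 h replicates 1 or 3 was omitted (log2FC -1.35 to -0.93), while Gad1 was at 312, 275 and 358 and then 332, 315 and 259 CPM and Gad2 at 215, 179 and 248 and then 187, 198 and 145 CPM. Of 10 oligodendrocyte precursor markers, the factor Olig1 rose from 57.9, 91 and 106 to 240.5, 111 and 192 CPM (log2FC 1.1, s.e. 0.23, adjusted p = 0.00389), a call lost when SE 12 h replicate 1 or else SE 36 h replicate 1 was omitted (log2FC 0.85 to 0.88), and Tnr, which precursors and neurons express, was at 121, 81.6 and 113 and then 169, 138 and 133 CPM (log2FC 0.48, adjusted p = 0.0379). Oligodendrocyte genes gave 0 calls of 12, with a wide spread at both times, as in Mbp at 1034, 604 and 1524 and then 692, 875 and 1256 CPM. Vascular genes gave 0 calls of 12. The pericyte gene Rgs5 was at 88.5, 72.8 and 81.1 and then 177, 138 and 161 CPM (log2FC 0.97, s.e. 0.13, adjusted p = 8.25e-05), just under the fold threshold and called without the 2 libraries that stood apart (log2FC 1.03), and the endothelial receptor Flt1 at 114, 122 and 159 and then 159, 98.1 and 118 CPM. Choroid plexus was represented by 3 tested genes, of which Kl, klotho, rose from 7.55, 3.91 and 5.66 to 19.9, 14.1 and 35.8 CPM (log2FC 2.04, s.e. 0.49, adjusted p = 0.00795) and was lost when SE 36 h replicate 3 was omitted (log2FC 1.57), while Aqp1 followed the 2 libraries that stood apart, at 28.8, 6.13 and 1.67 and 1.56, 2.29 and 40.4 CPM. Of 12 leukocyte markers 5 were in the table, with summed CPM of 1.49 to 5.62 at SE 12 h and 2.07 to 10.9 at SE 36 h. Arg1, arginase of myeloid cells, was at 0.199, 0.464 and 0.159 and then 0.667, 3.07 and 0.969 CPM (log2FC 2.38, s.e. 0.8, adjusted p = 0.0474), a call lost when SE 12 h replicates 1, 2 or 3 or else SE 36 h replicates 2 or 3 was omitted (log2FC 1.45 to 3.06), and the neutrophil genes S100a8 and S100a9 were at most 4.84 CPM, highest in the 2 libraries that stood apart. Hemoglobin and other blood genes gave 0 calls of 5, with Hbb-bs at 14.3, 14.9 and 21.2 and then 11.3, 9.69 and 27.1 CPM and Hba-a1 at 9.29, 7.19 and 9.48 and then 6.3, 4.57 and 13.7 CPM. The Y-linked gene Eif2s3y was at 33.1 to 54.9 and then 48.9 to 62.1 CPM. The 75 cytosolic ribosomal protein genes gave 0 calls, with a median log2FC of 0.1. Rpl4 was at 558, 442 and 648 and then 528, 583 and 514 CPM and Rps3 at 252, 235 and 298 and then 303, 336 and 318 CPM. The part of cell composition in the results was not tested.

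The 5 genes with the largest difference from the control step, among those whose SE and control steps had opposite signs, were all low. Slc6a21, Chrne, a subunit of the acetylcholine receptor of muscle, and Or9a7, an olfactory receptor gene, had no count in any SE 36 h library. Slc6a21 was at 0.348, 1.23 and 0.637 CPM at SE 12 h, which made it at least 3.51-fold lower at 36 h against 3 counts per library. Chrne was at 0.149, 0.895 and 1.99 CPM, at least 4.82-fold lower, and Or9a7 at 0.298, 0.464 and 1.2 CPM, at least 3.11-fold lower. Ptk6, a cytoplasmic tyrosine kinase, was at 1.19, 2.15 and 2.71 CPM at SE 12 h and 0, 0.158 and 0 CPM at SE 36 h (adjusted p = 0.00347). It had 123 counts over the SE 12 h libraries and 2 over the SE 36 h libraries, a ratio of 42.8 after scaling with a counting interval of 11.6 to 357, and no count at 36 h outside replicate 2. H1f3, a linker histone gene, was at 0.845, 2.06 and 1.91 and then 0.667, 0.158 and 0.285 CPM (log2FC -2.02, s.e. 0.62, adjusted p = 0.0365), and its call was lost when SE 12 h replicates 2 or 3 or else SE 36 h replicates 2 or 3 was omitted (log2FC -1.86 to -1.75). In the controls all 5 were at or under 0.288 CPM. Their values are near the limit of detection in every group.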

How the data were processed

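Polyadenylated RNA of microdissected CA1 was sequenced as paired ends from TruSeq v2 libraries. The authors trimmed reads with Trim Galore 0.6.6, aligned them to GRCm39 with STAR 2.7.8a, handled alignments with SAMtools 1.10 and counted them per GENCODE M26 gene with HTSeq 0.13.5 without regard to strand, so that overlapping and antisense genes cannot be told apart. The deposited values are raw gene counts, 1 column a library. All results were computed from these counts in R 4.3.3. Genes passing filterByExpr were fitted with edgeR 4.0.16 (TMM, quasi-likelihood) over the 8 groups and 24 libraries with 1 RUVr factor of unwanted variation, and p-values were adjusted by Benjamini-Hochberg over all genes tested. Of the 18647 genes in the table, 18552 matched the GENCODE M39 annotation used for names and promoters and 95 did not. Depth was 10651808 to 30133731 counts in the 12 libraries compared, and shallow libraries limit low genes most. The alternatives were limma-voom (limma 3.58.1), DESeq2 1.42.0, other scalings, filters and thresholds, and omitted libraries. Leaving out both libraries that stood apart, and the replicate block within the compared groups only, were chosen after seeing the data. With 3 libraries a side, an exact permutation test of 1 gene cannot go below p = 0.1.

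The groups follow the labels. The members and gene lists were chosen with earlier results of these data known. Genes named by rule were the 12 largest called changes in each direction that averaged 1 or more on the log2 CPM scale, did not overlap between the groups and had no predicted-gene name, then up to 4 called members of each list by size (the 2 most abundant members where fewer than 2 were called), and up to 5 genes called in the interaction whose control step had the opposite sign. Genes given only as the remaining called members of a list, and the genes of the promoters shown, lie outside the rule and were chosen after their values were seen. Promoters are the 250 bases before the canonical start in GRCm39. The values of 3 genes that the rule names are not reported here.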

Additional observations from a re-analysis of the deposited data

Results flagged for a closer look

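The difference between the SE step and the control step was tested as an interaction of the edgeR fit, and 427 genes passed it. Among the genes named, those with a lower SE step (log2 scale, SE step minus control step) were Slc6a21 at -10.43, Chrne at -8.61, Ptk6 at -7.58, Or9a7 at -6.58, H1f3 at -6.07, Hspa1a at -4.93, Tmco5 at -4.42, Fosb at -4.29, Hspa1b at -4.27, Steap4 at -4.19 and Nts at -4.05. Smaller differences of the same sign were those of Egr4 at -3.35, Spaar at -3.15, Pcsk1 at -2.75, Hmox1 at -2.69, Klf4 at -2.22, Bcan at -2.02, Gabrd at -1.99, Plk3 at -1.86, Cacng3 at -1.7, Per1 at -1.4 and Ntsr2 at -1.14. For Slc6a21, Chrne and Or9a7 these fitted values depend on the prior count, since a group was at 0. The controls of Ptk6, H1f3 and Steap4 were also near the limit of detection, so the size of their values is uncertain.

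Genes with a higher SE step were Tapbp at 1.07, Kcnj10 at 1.44, C1qc at 1.52, C1qa at 1.65, Fgfr3 at 1.8, Lig1 at 2.04, Vim at 2.07, H2-T23 at 2.19, Mcm5 at 2.37, Gpr34 at 2.39, Mmp19 at 2.42, Gpnmb at 2.45 and P2ry13 at 2.46. Larger were those of Tmem119 at 2.5, Selplg at 2.56, Tm4sf1 at 2.73, Uhrf1 at 2.75, Col12a1 at 2.99, Cd180 at 3.16, Top2a at 3.24, Inmt at 3.32, Snx31 at 3.53, Pclaf at 4.11, Bub1 at 5.19 and Cdsn at 5.51. The values of Pclaf, Bub1 and Cdsn were larger than their SE steps, so part of each came from the control step. Pclaf and Bub1 were also low at SE 12 h, so the size of their values is uncertain.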

How the results depend on the processing

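For SE 36 h against SE 12 h, the 1119 calls became 455 with the compared groups only, 489 with at least 10 counts in every library and 1819 at a log2FC threshold of 0.66, and ranged from 714 (without SE 36 h replicate 1) to 1388 when each SE library was left out in turn. The share of higher calls was 52.4%, and 64.4% with the compared groups only. No direction of the called genes named by rule reversed in the alternatives run, but 37 of 103 lost their call with the compared groups only, 62 of 103 with the replicate block added to that fit and 35 of 107 within the lowest range of label numbers. The count of interactions, 427, became 228 without the RUVr factor and 715 in DESeq2, and ranged from 166 to 654 when each library was left out, with 166, 179 and 230 without Ctr 36 h replicates 3, 2 and 1, 225 without Ctr 12 h replicate 2, 205 and 245 without SE 36 h replicates 1 and 3, and 256 and 654 with SE 12 h replicates 3 and 1 omitted. The control step gave 0 calls in every alternative except DESeq2, which gave 2. Same-numbered libraries of the 2 SE groups had correlations of deviations of -0.218, 0.153 and -0.262, so the numbers do not pair them. The replicate block gave 1068 SE calls, 456 interactions and 0 in the controls, and 175 SE calls (64.0% higher) with the compared groups only. Depth limits genes near 1 CPM, where a library holds few counts. The cause of these changes was not tested.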
